A study of Homo sapiens with 12 samples.

Results

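Protocadherins are calcium-dependent adhesion proteins of the cadherin superfamily. The clustered genes lie in 3 tandem arrays on human chromosome 5, named alpha, beta and gamma. In the alpha and gamma arrays each variable exon has its own promoter and is spliced to a shared set of constant exons, whereas each beta gene is a single exon. Neurons choose among these promoters, and the chosen isoforms mark single cells for recognition of self. Methylated promoters are silent, while active ones are bound by the looping factor CTCF together with cohesin. The non-clustered genes are scattered through the genome, and one of them, PCDH12, is known from endothelial cells.

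A pattern on gene symbols (PCDH followed by a number or by an alpha, beta or gamma isoform name) found 70 protocadherin genes among the 44786 symbols of the count table. These comprised 15 alpha, 16 beta, 22 gamma and 13 non-clustered genes, plus 4 antisense transcripts of PCDH9. The cells were U937, a myelomonocytic leukemia line of human origin. Since the table lists 231 transcripts for the 70 symbols, each gene is represented by the transcript with the highest mean over all 12 libraries.

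The 12 RNA-seq libraries fall into 4 groups of 3. These were untreated cells, cells given 200 nM decitabine (DAC, a cytosine analogue that traps DNA methyltransferases), cells given 1 µM all-trans retinoic acid (ATRA, a ligand of the retinoic acid receptors) and cells given both (DAC + ATRA). According to the labels, treatment ran for 3 days and harvest was at 72 h for treated and 96 h for untreated cells, all in medium with 20% FCS and 5 ng/ml GM-CSF, whereas the study's methods give 1 harvest time for all cells and less FCS, and add ATRA with the last DAC pulse. If the labels hold, treatment and time in culture cannot be told apart in the comparisons with untreated cells. The series describes the libraries of a group as technical triplicates of 1 cell line, so every p-value measures the spread between these libraries, not between independent cultures.

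Each library held 8042435 to 10683593 counted reads, and 3 reads were worth 2.50 to 3.71 normalized reads. Among 13 markers of the myelomonocytic lineage, 9 reached 10 normalized reads in at least 3 libraries, although PTPRC had no read in the transcript used. Their sum lay at 60832 to 68248 in untreated, 39098 to 56863 in DAC, 42213 to 61973 in ATRA and 37778 to 40586 in DAC + ATRA libraries. The 5 epithelial markers, of which CDH1 and KRT18 had no read, summed to at most 0.91 in untreated and 0 in ATRA libraries, but to 8.65 to 20.9 in DAC and 11.1 to 21.1 in DAC + ATRA libraries. The 3 erythroid markers had no read, and the sum over 4 lymphoid markers was at most 3.98. The sum over 6 fibroblast and endothelial markers lay at 153 to 184 in untreated, 303 to 362 in ATRA, 2663 to 2673 in DAC and 3026 to 3395 in DAC + ATRA libraries. This sum was mostly PECAM1, which stood at 129 to 151 in untreated and 2335 to 2403 in DAC libraries. COL1A1 stood at 13.7 to 21.2 in untreated, 198 to 252 in DAC, 45.4 to 50.1 in ATRA and 117 to 152 in DAC + ATRA libraries, while CDH5 was close to 0 and COL3A1 had no read. The 8 neuronal markers summed to 92.4 to 95.6 in untreated, 136 to 191 in DAC, 84.9 to 120 in ATRA and 152 to 191 in DAC + ATRA libraries, nearly all of it SYP, while MAP2, RBFOX3, SNAP25, STMN2 and SYT1 had no read. All marker levels, like that of PTPRC, are those of the transcript used. A marker without reads is not thereby shown to be silent. The part of these marker levels in the protocadherin results was not tested.

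Promoter sequence is shown first because the arrays share a short box that the gene symbols did not use. RefSeq promoters (GRCh38.p14, 250 bases before to 50 bases after the start) were found for 61 of the 70 symbols, of which 47 are clustered genes. Of these 47, 43 hold the letters CGCT on the gene's own strand with the first base 30 to 100 bases before the start. Among all 35116 promoters of the table, 21.6% hold them there. The window was chosen after the sequences were seen. In the 43 promoters the nearest box began 38 to 95 bases before the start, with a median of 55. By array, 12 of 13 alpha, 12 of 14 beta and 19 of 20 gamma promoters hold the box, against 2 of 11 non-clustered ones. Over either strand and the whole 300 bases CGCT is common, in 70.01% of all promoters. The longer ACGCT, which overlaps CGCT, is in 15 of the 47 clustered promoters and in 23.3% of all promoters on either strand.

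The boxes of 9 genes described here are printed with 20 bases on each side, because the letters around the box differ between the arrays. CGCT is in capitals, and each sequence is on the plus strand of chromosome 5.
PCDHB7, chr5:141172562-141172605: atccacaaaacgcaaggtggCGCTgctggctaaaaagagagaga
PCDHB3, chr5:141100389-141100432: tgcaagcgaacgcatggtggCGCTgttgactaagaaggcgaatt
PCDHB9, chr5:141187070-141187113: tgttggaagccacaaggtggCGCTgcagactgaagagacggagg
PCDHB13, chr5:141213861-141213904: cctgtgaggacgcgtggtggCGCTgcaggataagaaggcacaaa
PCDHB16, chr5:141182306-141182349: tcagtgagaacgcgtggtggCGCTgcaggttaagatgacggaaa
PCDHA10, chr5:140855837-140855880: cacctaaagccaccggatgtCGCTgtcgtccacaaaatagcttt
PCDHGA5, chr5:141364103-141364146: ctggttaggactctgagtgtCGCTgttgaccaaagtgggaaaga
PCDHGA6, chr5:141373831-141373874: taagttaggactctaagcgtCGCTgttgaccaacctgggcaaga
PCDHGB6, chr5:141407944-141407987: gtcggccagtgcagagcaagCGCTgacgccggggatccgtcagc

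In the 5 beta genes shown, TGG stands before the box. The letters TGGCGCT, which contain CGCT, occur on either strand in 13 of 14 beta, 3 of 20 gamma and 0 of 13 alpha promoters, and in 4.08% of all promoters. PCDHB8 and PCDHB5 have CGCT in their promoters but not in the window. PCDH12 has no CGCT on its own strand.

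CpG sites, the positions at which DNA methyltransferases act, are sparse in most of the clustered promoters. The median was 7 CpGs in 300 bases for the 47 clustered genes, ranging from 2 to 27, against 14 for all promoters, and 42 of the 47 had no more than 14. The median for the 11 non-clustered promoters was 15. A pair of stretches is given in full, 250 bases up to the start with each CpG in capitals, because among the 15 tested genes PCDHB7 had the largest log2 fold change with DAC and PCDH12 the highest level.
PCDHB7, chr5:141172394-141172643, plus strand: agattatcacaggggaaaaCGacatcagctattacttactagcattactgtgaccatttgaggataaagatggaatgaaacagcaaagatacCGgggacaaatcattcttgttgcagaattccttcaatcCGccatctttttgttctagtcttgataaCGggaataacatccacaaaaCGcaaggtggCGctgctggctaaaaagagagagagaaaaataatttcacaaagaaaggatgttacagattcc
PCDH12, chr5:141958203-141958452, minus strand: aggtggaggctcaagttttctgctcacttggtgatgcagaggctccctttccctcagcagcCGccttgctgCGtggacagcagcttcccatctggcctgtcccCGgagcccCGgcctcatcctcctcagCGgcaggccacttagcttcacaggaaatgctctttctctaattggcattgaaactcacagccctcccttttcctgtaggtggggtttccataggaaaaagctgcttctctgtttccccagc
The stretch of PCDHB7 holds 6 CpGs, of which 1 lies in the box. The stretch of PCDH12 holds 5.

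Few reads fell on protocadherin transcripts. Of the 70 genes, 22 had no read in any library, comprising 9 alpha, 2 gamma and 7 non-clustered genes and the 4 antisense transcripts. Of these 22, 12 have fewer than 300 bases that no other transcript covers, among them 7 of the 9 alpha genes, so that a lack of reads says little about their level. All 16 beta genes had at least 1 read. Of the 48 genes with reads, 15 had 10 or more normalized reads in 3 libraries or more and were tested. These were PCDHA10, the beta genes 2, 3, 7, 8, 9, 10, 13, 14, 15 and 16, the gamma genes PCDHGA5, PCDHGA6 and PCDHGB6, and PCDH12. Only 5 of the 15 reached 10 in all 3 untreated libraries, and 6 reached it in none of them, so these 6 had to be higher in a treated group to be tested.

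More protocadherin genes were detected after treatment. With at least 3 reads in each library of a group as the limit, 11 genes were detected in untreated cells, 14 with ATRA, 18 with DAC and 23 with DAC + ATRA. The share of the 70 genes went from 15.7% to 32.9%, while among all 19346 protein-coding symbols it went from 38.8% to 43.7%. Most of the added genes belonged to the beta array, of which 7, 10, 11 and 14 genes were detected in untreated, ATRA, DAC and DAC + ATRA cells. No alpha gene was detected without DAC, and PCDHA10 alone was detected with it, within the limit just given for 7 alpha genes. Detection was described without a test, since it depends on depth.

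**Figure D1:**
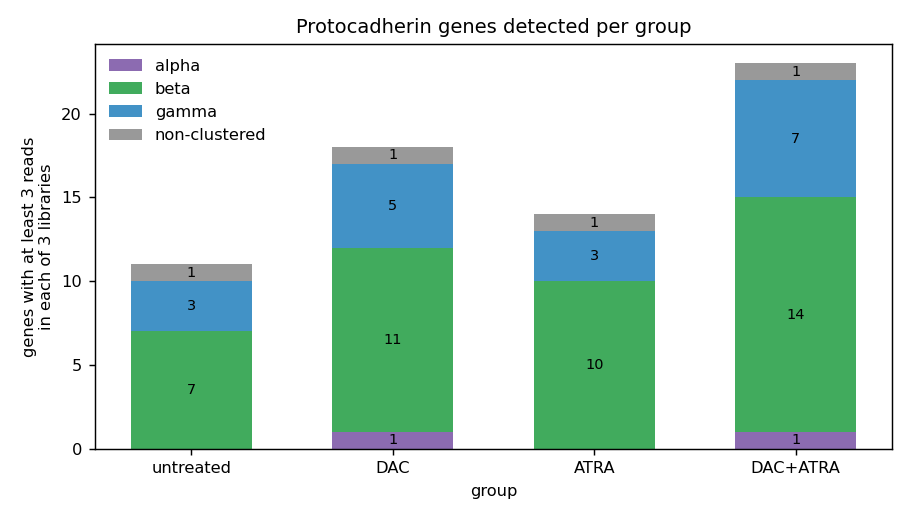
Number of protocadherin genes (y axis) with at least 3 reads in each of the 3 libraries of a group (x axis), stacked by array. The count was 11 in untreated, 18 in DAC, 14 in ATRA and 23 in DAC + ATRA cells, and beta genes made up most of each bar.

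The summed level of each array was highest in DAC + ATRA cells. The 16 beta genes together had 126 ± 26.4 normalized reads in untreated, 297 ± 19.2 in DAC, 180 ± 29.4 in ATRA and 392 ± 28.8 in DAC + ATRA libraries (mean ± SD, n = 3 here and below). Relative to untreated cells these are ratios of 2.37 for DAC, 1.44 for ATRA and 3.12 for DAC + ATRA. The lowest DAC library, at 277, lay above the highest untreated one, at 141. The 22 gamma genes summed to 48.9 ± 7.27, 119 ± 15.3, 75.9 ± 12.1 and 191 ± 19.6 in the same order, with ratios of 2.43, 1.55 and 3.91. For the 15 alpha genes, only 4 reads were found over the 3 untreated and 5 over the 3 ATRA libraries, against 28 with DAC and 50 with DAC + ATRA. All sums are descriptions without a test.

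**Figure D2:**
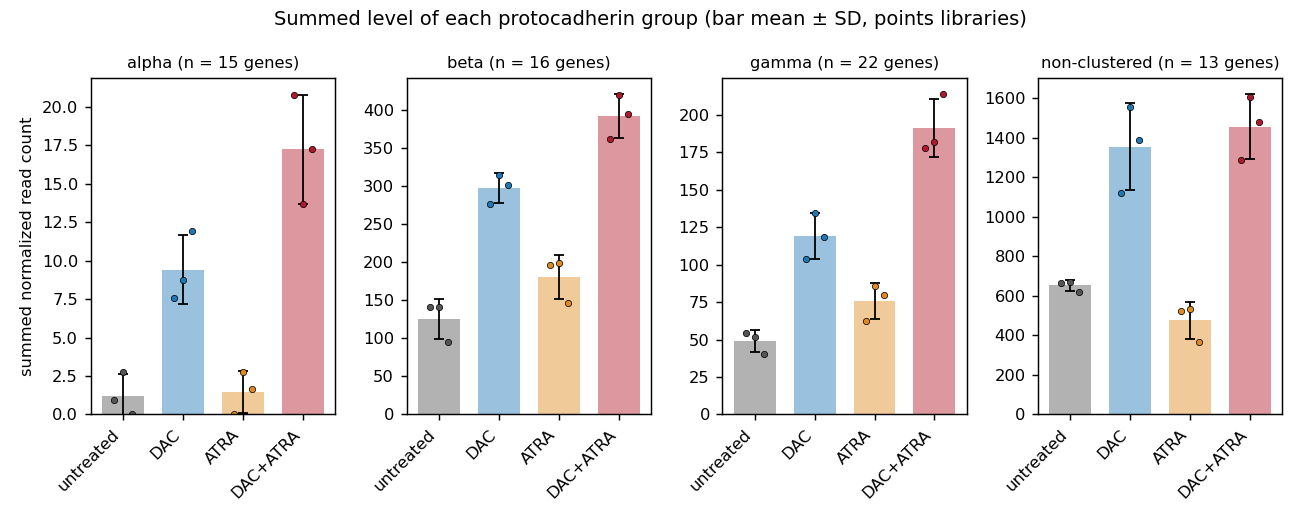
Summed normalized read count (y axis) of the alpha, beta, gamma and non-clustered genes by group (x axis), with bars for the mean, error bars for the SD and points for the 3 libraries. Beta genes went from a mean of 126 in untreated to 392 in DAC + ATRA libraries, and gamma genes from 48.9 to 191.

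DAC alone was compared with untreated cells first, to see which protocadherin transcripts differ under an inhibitor of DNA methylation. Of the 15 tested genes, 13 were higher with DAC at an adjusted p under 0.01 (limma) and none was lower, where 30.6% of all 9016 tested transcripts were higher and 8.70% were lower. With edgeR and TMM, a scaling on the bulk of the transcripts, 10 were higher, against a background of 25.4%, and with DESeq2 8 were, against 25.2%. The 3 DAC libraries of the 13 all lay above the 3 untreated ones, as did those of 41.9% of all tested transcripts. The median log2 fold change over all tested transcripts was 0.22 with DAC, and it was 0.02 when TMM replaced the deposited size factors, under which 2291 transcripts were higher and 1574 lower in place of 2763 and 784. PCDHB10 and PCDHGA5 did not pass. All 6 genes that reached 10 in no untreated library were among the 13 that did. These 6 had to be higher in a treated group to be tested. Without the filter on low values, 48 genes were tested and 15 were higher with DAC, against a background of 12.7%.

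Among the tested beta genes, PCDHB7 (ENST00000231137.5, chr5:141172644-141176383, plus strand, hg38) had the largest log2 fold change. Its normalized read counts were 1.84, 0.91 and 0.00 in untreated, 21.6, 13.6 and 10.96 in DAC, 1.06, 3.64 and 4.16 in ATRA, and 21.7, 24.2 and 24.7 in DAC + ATRA libraries. Every library with DAC thus stood above every library without it. The log2 fold change with DAC was 3.17 ± 0.44 (SE), with an adjusted p of 3.9e-06 (limma), and with DAC + ATRA it was 3.80 ± 0.44. PCDHB7, like PCDHB3 and PCDHA10 below, reached 10 only in libraries with DAC, so its entry into the test depended on the difference tested. Since only 3 reads were found over the untreated libraries, the ratio of 16.6 for DAC has a 95% exact counting interval from 5.33 to 83.5. Such intervals cover counting error only.

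PCDHB3 (chr5:141100473-141103827) stood at 0.92, 2.73 and 0.00 in untreated, 13.0, 13.6 and 12.9 in DAC, 6.34, 4.55 and 4.16 in ATRA, and 9.04, 15.8 and 11.1 in DAC + ATRA libraries. Here the DAC and DAC + ATRA values overlapped, and the ATRA values lay between them and the untreated ones. With DAC its log2 fold change was 2.88 ± 0.42, and the ratio of 10.8, from 39 against 4 reads, had an interval from 3.89 to 41.6.

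PCDHB9 (chr5:141187161-141191541) was the beta gene with the most reads. It had 45.03, 36.4 and 29.6 normalized reads in untreated, 61.6, 64.3 and 62.7 in DAC, 69.7, 69.2 and 49.9 in ATRA, and 73.2, 76.8 and 77.9 in DAC + ATRA libraries. DAC values lay within the wider range of the ATRA values, and both lay above untreated. Its share of all beta reads was 29.6% ± 3.35 in untreated and 34.8% ± 0.70 in ATRA, but 21.2% ± 0.96 in DAC and 19.4% ± 0.99 in DAC + ATRA libraries. The share of PCDHB7 went the other way, from 0.65% ± 0.65 in untreated to 5.26% ± 2.23 in DAC and 6.02% ± 0.25 in DAC + ATRA libraries. The log2 fold change of PCDHB9 with DAC, 0.77 ± 0.19, was the smallest of the 13 that passed. It passed neither with DESeq2 (adjusted p = 0.0237) nor with edgeR and TMM (adjusted p = 0.0158), nor without untreated library 3 (adjusted p = 0.0191, limma).

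PCDHB13 (chr5:141213919-141218979) was at 23.0, 17.3 and 14.8 in untreated and at 53.0, 63.3 and 50.8 in DAC libraries, with no overlap. ATRA libraries had 30.6, 23.7 and 26.6, and DAC + ATRA libraries 55.1, 74.7 and 60.6. Its log2 fold change was 1.57 ± 0.22 with DAC and 1.75 ± 0.22 with DAC + ATRA.

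PCDHB8 (chr5:141177790-141180539) was measured at 28.5, 20.9 and 20.3 in untreated, 38.9, 35.1 and 55.8 in DAC, 23.2, 30.04 and 21.6 in ATRA, and 62.4, 69.5 and 71.7 in DAC + ATRA libraries. The DAC + ATRA libraries lay above all others, while ATRA and untreated values overlapped. With DAC its log2 fold change was 0.86 ± 0.23, which did not pass under TMM scaling (adjusted p = 0.0177), with edgeR (adjusted p = 0.0179) or with DESeq2 (adjusted p = 0.0296), nor without untreated library 2 or 3 or DAC library 6. Beta genes are close paralogs. Of all 50-base stretches in the part of PCDHB8 that no other transcript covers, 45.3% occur again within the arrays, as do 35.3% for PCDHB10, 23.6% for PCDHB13 and 23.5% for PCDHB9, so reads of these genes could be split or lost in counting.

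The other 4 beta genes that passed with DAC had log2 fold changes from 1.45 to 1.96. PCDHB16 went from a mean of 11.3 ± 3.63 in untreated to 32.0 ± 6.06 in DAC libraries. PCDHB2 rose from 10.1 ± 4.68 to 27.9 ± 5.21, PCDHB15 from 2.45 ± 0.53 to 10.1 ± 1.63, and PCDHB14 from 1.52 ± 1.89 to 7.39 ± 2.97. The DAC and untreated libraries of these 4 genes did not overlap. PCDHB14 did not pass with edgeR (adjusted p = 0.0179) or DESeq2 (adjusted p = 0.0403), nor without untreated library 1 or 3 or DAC library 5, and PCDHB15 did not pass with DESeq2 (adjusted p = 0.0169). PCDHB10 was the beta gene that did not pass. Its values were 5.51, 10.01 and 6.46 in untreated and 6.49, 16.6 and 8.96 in DAC libraries, which overlap, and its log2 fold change was 0.43 ± 0.42.

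PCDHA10 (ENST00000562220.2, chr5:140855883-140868240) was the alpha gene with enough reads to test. It stood at 0.00, 1.82 and 0.00 in untreated, 5.40, 8.77 and 9.96 in DAC, 0.00, 2.73 and 1.66 in ATRA, and 17.2, 10.53 and 14.8 in DAC + ATRA libraries. Libraries with DAC did not overlap with those without it. The log2 fold change was 2.64 ± 0.50 with DAC and 3.40 ± 0.50 with both, and the ratio for DAC + ATRA, 23.4 from 41 against 2 reads, had a counting interval from 6.08 to 199.6. The other 5 alpha genes with reads had 1 to 7 over all libraries.

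PCDHGA6 (ENST00000610583.1, chr5:141373993-141379642) was the gamma gene with the most reads. Its normalized read counts were 32.2, 25.5 and 24.9 in untreated, 53.0, 69.2 and 63.7 in DAC, 39.1, 50.1 and 44.9 in ATRA, and 82.3, 102 and 133 in DAC + ATRA libraries. The 4 groups did not overlap, in the order untreated, ATRA, DAC and DAC + ATRA. With DAC the log2 fold change was 1.14 ± 0.21, and with DAC + ATRA it was 1.89 ± 0.21. Its mean share of all gamma reads ran over the groups from 52.1% to 59.2%.

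PCDHGA5 (chr5:141364232-141367783) had 7.35, 10.9 and 7.39 normalized reads in untreated, 11.9, 14.6 and 9.96 in DAC, 11.6, 14.6 and 13.3 in ATRA, and 36.2, 22.1 and 27.2 in DAC + ATRA libraries. Only the DAC + ATRA libraries lay above those of each other group. With DAC alone its log2 fold change of 0.47 ± 0.29 did not pass (adjusted p = 0.193, limma). PCDHGB6 (chr5:141408021-141412621) had 3.68, 0.91 and 0.00 in untreated and 5.40, 9.74 and 11.95 in DAC libraries, and its log2 fold change was 2.21 ± 0.49, which did not pass with DESeq2 (adjusted p = 0.0129).

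For 10 of 15 alpha and 18 of 22 gamma genes, all 4 tested ones included, the transcript used is a single exon. In each of these that had reads, it runs past the variable exon into the intron before the constant exons. The transcript of PCDHGA6 extends 3135 bases past the variable exon, that of PCDHGA5 1032 bases, that of PCDHGB6 2001 bases and that of PCDHA10 9804 bases. The spliced transcripts of these genes had 74 reads for PCDHGA6 and none for the other 3, against 716, 190, 86 and 72 in the transcripts used. The variable exon belongs to both transcripts. Where along a transcript the reads lay was not measured, so spliced and unspliced RNA cannot be told apart in the values of the alpha and gamma genes. Over the arrays, spliced transcripts had 0 reads in alpha and 124 in gamma. How reads shared between transcripts were counted is not given in the sources used here. If such reads were left out, these low counts say little about spliced RNA. The values of the single-exon transcripts would then rest mainly on the stretches past the variable exon.

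PCDH12 (ENST00000231484.3, chr5:141943581-141958202, minus strand, 4 exons) lies outside the arrays on the same chromosome and exceeded every clustered gene in level. Per kilobase that no other transcript covers, its mean was 124 normalized reads in untreated cells, against at most 10.3 for a tested clustered gene. It was measured at 667, 669 and 622 in untreated, 1118, 1550 and 1385 in DAC, 526, 535 and 367 in ATRA, and 1284, 1608 and 1473 in DAC + ATRA libraries. DAC and DAC + ATRA values overlapped and were well above untreated, while all 3 ATRA values were below. The log2 fold change was 1.04 ± 0.14 with DAC and 1.15 ± 0.14 with DAC + ATRA. PECAM1 and VWF, also known from endothelial cells, were higher in DAC and DAC + ATRA libraries, while CDH5 stayed close to 0. VWF stood at 4.60 to 11.1 in untreated and 59.4 to 73.7 in DAC libraries. With ATRA neither followed PCDH12. PECAM1 was higher, at 254 to 300 against 129 to 151 in untreated libraries, and VWF, at 3.33 to 16.9, overlapped with untreated. The other 5 non-clustered genes with any read, PCDH1, PCDH7, PCDH9, PCDH10 and PCDH17, had 1 to 6 reads over all 12 libraries.

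**Figure D3:**
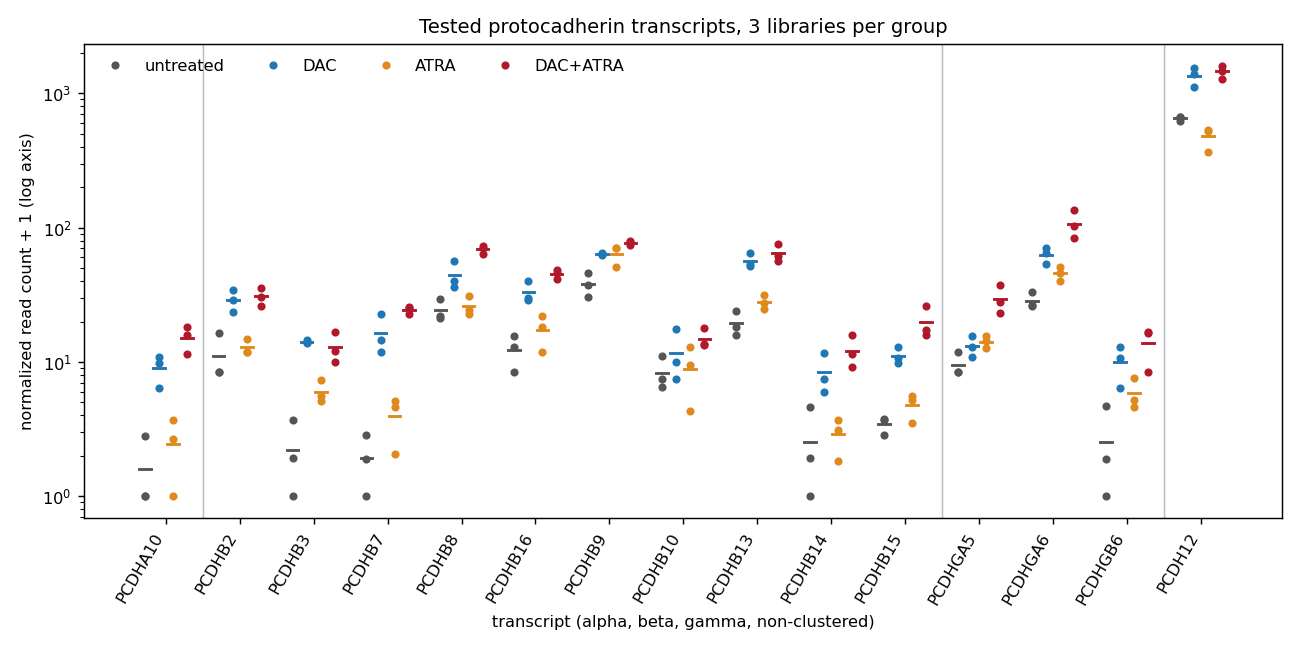
Normalized read count plus 1 (y axis, log scale) of the 15 tested protocadherin transcripts (x axis, by array and position), with a point per library and a line at the mean of each group. For PCDHB7, PCDHB3 and PCDHA10 every DAC and DAC + ATRA library lies above every untreated one, and PCDH12 is the only transcript whose ATRA libraries all lie below the untreated ones.

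ATRA alone was compared with untreated cells next. At an adjusted p under 0.01, 1 of the 15 tested genes was higher and none was lower, where 6.47% of all tested transcripts were higher and 2.67% were lower. Without adjustment, 7 of the 15 had a p under 0.05, as had 26.1% of all tested transcripts. The gene that passed, PCDHB9, had a log2 fold change of 0.75 ± 0.19 and an adjusted p of 0.00908 (limma), close to the threshold. It no longer passed in 10 of 12 fits that left out 1 library, in which its adjusted p reached 0.0658 without untreated library 3, and it did not pass with DESeq2 (adjusted p = 0.0123). Log2 fold changes were above 0 for 13 of the 15 genes. ATRA libraries lay wholly above untreated ones for 5 genes, namely PCDHB3, PCDHB9, PCDHB13, PCDHGA5 and PCDHGA6, against 14.8% of all tested transcripts.

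PCDHB3, PCDHGB6 and PCDHB7 had larger log2 fold changes with ATRA than PCDHB9 but few reads. For PCDHB3 it was 1.63 ± 0.42 (adjusted p = 0.0111, limma), and without untreated library 2 it was 2.10 (adjusted p = 0.00168). For PCDHGB6 it was 1.46 ± 0.49 (adjusted p = 0.0513), and without untreated library 1 it was 2.05 (adjusted p = 0.00656). PCDHB7 had 1.06 ± 0.44 (adjusted p = 0.121), and PCDHGA6 had 0.68 ± 0.21 (adjusted p = 0.0288).

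PCDH12 had a log2 fold change of -0.47 ± 0.14 with ATRA and an adjusted p of 0.0268 (limma). The fall passed with edgeR (adjusted p = 0.00233), with DESeq2 (adjusted p = 0.00135), under TMM scaling (adjusted p = 0.00323), under scaling by library size (adjusted p = 0.00381) and without the filter (adjusted p = 0.009995). ATRA library 9 was the lowest, at 367, and without it the log2 fold change was -0.30, which did not pass (limma). Among all tested transcripts, the ATRA libraries of 13.0% lay wholly below the untreated ones.

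DAC + ATRA raised 14 of the 15 tested genes over untreated cells and lowered none, where 32.6% of all tested transcripts were higher and 14.2% were lower. Only PCDHB10 did not pass, with a log2 fold change of 0.87 ± 0.42 and an adjusted p of 0.0809 (limma). In all 15 genes the DAC + ATRA libraries lay above the untreated ones, as they did for 42.8% of all tested transcripts. The count of 14 was the same with edgeR (background 29.2%), with DESeq2 (background 28.0%) and in all 12 fits that left out 1 library. Under TMM scaling 2644 of all tested transcripts were higher and 1815 lower, in place of 2937 and 1278. Log2 fold changes of the genes that passed ran from 1.04 for PCDHB9 to 3.80 for PCDHB7. Without the filter, 17 of 48 genes were higher, against a background of 13.9%.

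**Figure D4:**
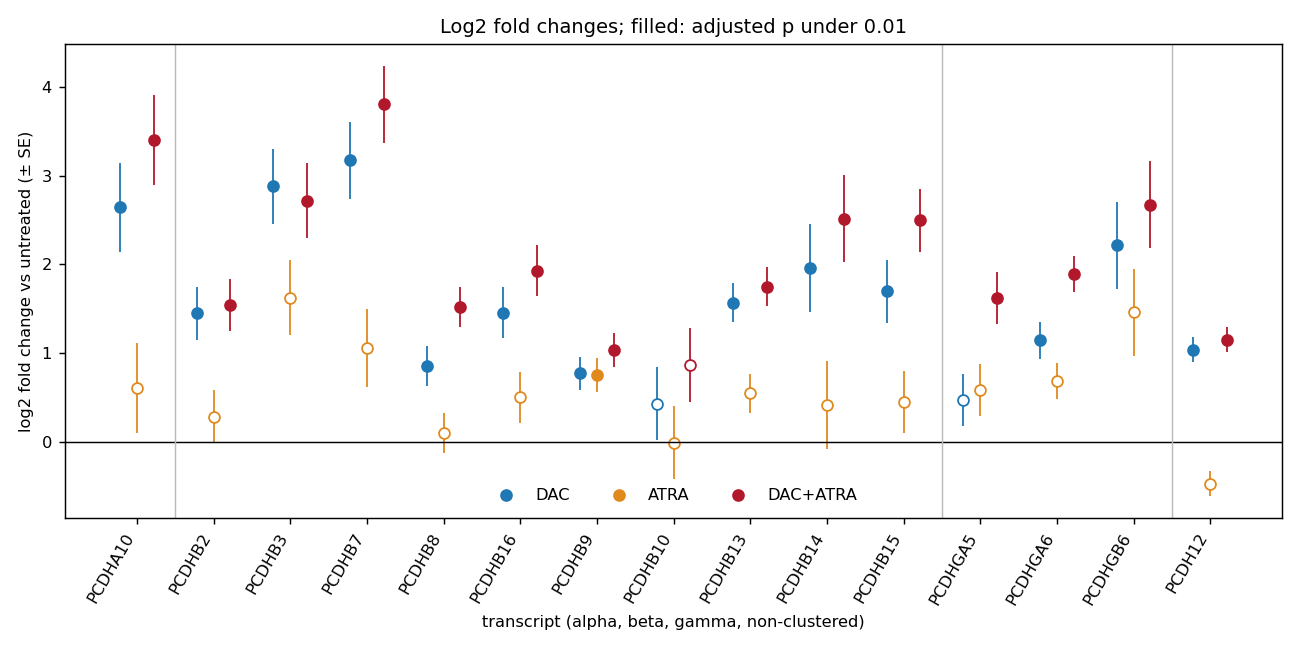
Log2 fold change against untreated cells (y axis, point ± SE) of the 15 tested transcripts (x axis) for DAC, ATRA and DAC + ATRA, filled where the adjusted p was under 0.01. With DAC 13 points are filled, with DAC + ATRA 14, and with ATRA only that of PCDHB9, while that of PCDH12 lies below 0.

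DAC + ATRA was set against each single agent to see what the second drug added. Against ATRA alone, 11 of the 15 genes were higher and none was lower, where 25.9% of all tested transcripts were higher and 8.88% were lower. In all 15 the DAC + ATRA libraries lay above the ATRA ones, as they did for 35.7% of all tested transcripts. The 6 genes that reached 10 in no untreated library reached it in no ATRA library either. PCDHB3, PCDHB9, PCDHB10 and PCDHGB6 did not pass, with log2 fold changes of 1.09, 0.28, 0.88 and 1.21. PCDHGA5 passed neither with DESeq2 (adjusted p = 0.0367) nor under TMM scaling (adjusted p = 0.0150), and not without any 1 of the ATRA libraries or of DAC + ATRA libraries 10 and 12. PCDHB14 was lost with DESeq2 (adjusted p = 0.0104) and without ATRA library 9 or DAC + ATRA library 12, and PCDHB2 without DAC + ATRA library 10. Against DAC alone, 1 gene was higher and none was lower, where 6.08% and 5.26% of all tested transcripts were. This was PCDHGA5, with a log2 fold change of 1.15 and an adjusted p of 0.0082 (limma). It no longer passed in 5 of 12 fits that left out 1 library, those without DAC library 4, 5 or 6 or DAC + ATRA library 10 or 12, where its adjusted p ran from 0.0101 to 0.0609, nor with DESeq2 (adjusted p = 0.0168). PCDHGA6 had 0.75 (adjusted p = 0.0138), and it passed with edgeR (adjusted p = 0.0032) and with DESeq2 (adjusted p = 0.00497). PCDHB8 had 0.66 (adjusted p = 0.0490). For 8 of the 15 genes the DAC + ATRA libraries lay wholly above the DAC libraries, against 15.5% of all tested transcripts.

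The interaction of DAC and ATRA, which is 0 when both agents simply add up on the log2 scale, passed for none of the 15 genes (limma), where 2.46% of all tested transcripts passed. An unadjusted p under 0.05 was found for 2 genes, and for 17.1% of all tested transcripts. DESeq2 called 1, PCDH12, with a log2 difference of 0.62 and an adjusted p of 0.007, where limma had 0.59 and an adjusted p of 0.108 and edgeR an adjusted p of 0.0101. PCDHB3 had the largest negative value, -1.79 (adjusted p = 0.101, limma). The comparisons with untreated cells share the untreated libraries, and those of DAC + ATRA share its libraries.

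Below the limit for testing, 9 genes had at least 3 reads in each library of at least 1 group. PCDHB5 had no read in the untreated and ATRA libraries, but 3.24, 11.7 and 6.97 normalized reads in DAC and 7.23, 11.6 and 6.18 in DAC + ATRA libraries. Over the libraries of a group these were 22 and 24 reads, and the 95% exact counting interval of the ratio to untreated cells began at 6.06 for DAC and 6.87 for DAC + ATRA. PCDHGA2 had 1 read over the untreated libraries, none with ATRA, 18 with DAC and 17 with DAC + ATRA. PCDHGA10 had 1 read over the untreated libraries, 11 with DAC and 21 with DAC + ATRA. In the fit without a filter, PCDHB5 and PCDHGA2 passed with DAC and with DAC + ATRA, and PCDHGA10 passed with DAC + ATRA. For PCDHB5, PCDHGA2, PCDHGA10 and PCDHGB2 the DAC and DAC + ATRA libraries all lay above the untreated ones, and for PCDHB11 and PCDHGB3 those with DAC + ATRA did. Apart from PCDHB11, these genes met the limit of 3 reads only in groups with DAC, so the way they were chosen favoured this result. Among all 3096 transcripts chosen by the same rule, 29.2% lay above with DAC and 29.6% with DAC + ATRA. With 3 libraries against 3, an exact 2-sided permutation test cannot go below p = 0.1, which was its value in each of these 10 comparisons.

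PCDHB4, PCDHB12 and PCDHGA7 overlapped with untreated cells in every treatment. PCDHB12, for example, ranged from 0.00 to 6.43 in untreated, from 0.00 to 7.57 in DAC and from 3.62 to 5.26 in DAC + ATRA libraries. The remaining 24 genes with reads had 1 to 24 reads each over all 12 libraries. In the limma fit without a filter none of these 24 passed in any comparison, nor did any with edgeR. Their smallest adjusted p in that limma fit was 0.0102, for PCDHGB1 with DAC + ATRA against ATRA. At an unadjusted p under 0.05 there were 5 of the 24 with DAC and 4 with DAC + ATRA against untreated cells, where 29.8% and 32.8% of all transcripts in this fit were. The transcripts of PCDHGB2 and PCDHGB3 have only 73 and 153 bases that no other transcript covers.

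Genes lying next to the arrays on chromosome 5 were listed to see how the surroundings behaved. Of the 16 tested neighbours, 8 passed as higher with DAC, 1 with ATRA and 9 with both agents, in which 1 was lower. Among all 7622 tested protein-coding symbols 33.4%, 7.12% and 35.1% were higher and, under the combination, 14.7% were lower. The median log2 fold change of the neighbours with DAC + ATRA was 0.75, against 0.22 for all symbols. HBEGF, which encodes a growth factor of the EGF family, rose from 108 ± 24.4 in untreated to 503 ± 114 in DAC, 246 ± 60.5 in ATRA and 1198 ± 131 in DAC + ATRA libraries. The transcript used for GNPDA1, a glucosamine-6-phosphate deaminase gene, had no read in untreated and ATRA libraries and 9.06 ± 2.31 and 16.1 ± 7.53 normalized reads in DAC and DAC + ATRA libraries. ZMAT2 fell by 0.54 on the log2 scale with DAC + ATRA.

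A list of 24 genes for promoter choice and silencing held CTCF, cohesin, DNA methyltransferases, TET enzymes and others. Genes whose transcripts all missed the filter are not thereby shown to be silent. The 12 with a protein-coding transcript above the filter were tested. With DAC, 3 were higher and 2 lower, where 33.4% of all symbols were higher and 8.83% were lower. With ATRA, 2 were higher and none was lower, against 7.12% and 3.02% of all symbols. With DAC + ATRA, 3 were higher and 3 lower, against 35.1% and 14.7% of all symbols. DNMT3A, a de novo DNA methyltransferase, stood at 1025 ± 39.4 in untreated, 1279 ± 116 in DAC, 2664 ± 46.6 in ATRA and 2761 ± 62.9 in DAC + ATRA libraries. WIZ encodes a zinc finger protein that binds histone methyltransferases. The transcript used for WIZ rose from 37.9 ± 4.70 in untreated to 85.1 ± 14.1 in DAC libraries. In DAC + ATRA libraries it stood at 79.5 ± 3.02. SMC3, a cohesin subunit, fell by 0.36 on the log2 scale with DAC and by 0.46 with DAC + ATRA. TET1, an enzyme that oxidises methylcytosine, fell by 0.55 and 0.60.

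Of 23 genes whose proteins bind protocadherins or act with them (the WAVE complex, focal adhesion kinases, catenins), 11 were tested. DAC libraries had 2 of these higher, the ATRA comparison gave 1, DAC + ATRA gave 4, and none passed as lower. Over all symbols 33.4%, 7.12% and 35.1% were higher in the same order. ABI3, a subunit of the WAVE complex, was at 6.11 ± 1.86 in untreated and 34.5 ± 7.50 in DAC + ATRA libraries, and a transcript of CTNND1, which encodes p120 catenin, at 3.98 ± 1.08 and 15.8 ± 7.67.

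Other genes of the cadherin superfamily gave 14 tested genes of 51 listed, and 10 were higher with DAC, against 33.4% of all symbols. With DAC + ATRA 9 were higher and 2 lower, against 35.1% and 14.7%, and with ATRA 2 were higher, against 7.12%. The 14 genes had a median log2 fold change of 1.26 with DAC and 1.97 with DAC + ATRA, where all symbols had 0.24 and 0.22. CLSTN2, which encodes a calsyntenin, had no read in untreated and ATRA libraries, 402 ± 8.92 normalized reads in DAC and 186 ± 14.6 in DAC + ATRA libraries. RET, a receptor tyrosine kinase with cadherin-like domains, went from 0.31 ± 0.53 in untreated to 139 ± 31.1 in DAC and 54.9 ± 2.77 in DAC + ATRA libraries. CELSR3 and CELSR2, adhesion receptors of planar polarity, fell by 0.72 and 0.63 on the log2 scale with DAC + ATRA. All lists were chosen with earlier results of these data known, and no test was made of a list as a whole.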

How the data were processed

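RNA-seq of U937 cells was analysed, with 12 libraries in 4 groups of 3. According to the study's methods, ribosomal RNA was depleted, strand-specific libraries were sequenced as 50 bp pairs, and STAR (hg38) and htseq-count gave the counts. Tool versions, annotation release and strand setting are not given in the sources used here. As deposited, the values are a signal, namely the counts of reads on each transcript after division by a size factor of the library. Within each library 100% of values lay within 0.01 of a whole read, once the value of 1 read was found, and reads were recovered so. The columns name the group but not the replicate, so libraries carry the running number of their column.

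Transcripts taken as protein-coding from GENCODE 44, plus the protocadherin transcripts, were tested where 3 libraries or more had a value of 10 or more (9016 transcripts), with limma 3.58.1 (lmFit, eBayes with trend and robust, R 4.3.3) on log2(value + 1). The 12 libraries entered 1 fit with Benjamini-Hochberg adjustment and a threshold of 0.01. Every adjusted p not credited to another tool is from this fit, and fold changes on this scale understate the change of low transcripts. The members, gene lists and tests were chosen with earlier results of these data known. All tested members are named, as are those with at least 3 reads in each library of a group. From each other list, the 2 highest and 2 lowest genes that passed with DAC + ATRA are named, each by the protein-coding transcript whose mean was highest.

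Alternatives were edgeR 4.0.16 and DESeq2 1.42.0 on recovered reads, library-size or TMM scaling, a pseudocount of 0.5, no filter, a filter of at least 5, all transcripts, sums by symbol, only the groups compared, a threshold of 0.05 and leaving out each library. edgeR and limma with TMM but no filter were added after the data were seen. Replicate libraries differed by more than counting noise (chi-square per degree of freedom 2.40 to 10.99). The fits were tested on simulated data. Promoters are from RefSeq, tables were made in Python 3.11.15, and proteins were not analysed here.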

Additional observations from a re-analysis of the deposited data

How the results depend on the processing

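No paired analysis was possible because the columns of the table carry no replicate number. Percentages in brackets are the shares of all transcripts tested in the same fit. With DAC, 8 genes passed with DESeq2 and 10 with edgeR against 13 with limma, and 10 to 13 passed without 1 library (26.6% to 33.1%), the fewest (10) without untreated library 3. With ATRA, edgeR and TMM scaling each gave 1 higher and 1 lower gene (6.64% and 4.31%, and 6.93% and 4.24%), sums by symbol gave 2 higher (7.14%), and a threshold of 0.05 gave 3 higher and 1 lower (9.41% and 5.20%). DESeq2, library size scaling and the fit without the filter each gave 1, PCDH12, which was lower (4.25%, 4.98% and 0.837%). A filter of at least 5 or only the groups compared gave 0 (7 and 6 at an unadjusted p under 0.05, as 22.9% and 24.2% of all transcripts). Without 1 library 0 to 2 were higher (5.14% to 8.95%). For DAC + ATRA against DAC, 2 were higher with edgeR (8.62%, without the filter 3.22%), under TMM scaling (7.64%) or with only the groups compared (7.08%), 3 at a threshold of 0.05 (8.80%), and 0 without the filter, with or without TMM scaling (6 and 7 at an unadjusted p under 0.05, as 16.6% and 16.5% of all transcripts). Leaving out 1 library gave 0 to 1 (4.80% to 6.90%). For DAC + ATRA against ATRA, 9 were higher with DESeq2 (22.8%) and under library size scaling (24.1%), 10 under TMM scaling (23.5%), and 9 to 11 without 1 library (22.2% to 26.0%). The interaction passed for 1 gene, PCDH12, with DESeq2 and, in fits chosen after the data were seen, with edgeR or TMM scaling without the filter. The cause of these differences was not tested.

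The summed alpha level rests on 4 untreated reads, of which 3 came from untreated library 2. Its ratio to untreated ran from 5.17 to 20.5 for DAC, from 0.68 to 3.19 for ATRA and from 9.46 to 37.6 for DAC + ATRA when 1 library was left out, and the upper values are those without untreated library 2. The ratios of the other arrays moved by less than 1 SD. Of the 40 single-gene differences that passed, 0 changed direction under any alternative and 10 no longer passed under at least 1. PCDHB14 missed the filter under library size scaling and was not tested there, which left 13 genes with DAC + ATRA. With ATRA, the log2 fold change of PCDHB10 turned positive with edgeR (0.040), DESeq2 (0.050) and edgeR without the filter (0.050). Without 1 library it ran from -0.34 to 0.44 for PCDHB10, from -0.11 to 1.00 for PCDHB14 and from -0.034 to 0.25 for PCDHB8. At these depths 33 of the 48 genes with reads stayed below the filter, and 13 of the 33 have fewer than 300 bases that no other transcript covers. The part of depth in this was not tested.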
